A study of Mus musculus with 16 samples.

Results

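The MHC class II genes were followed in BMDMs, macrophages that were cultured from mouse bone marrow. The 7 genes are H2-Aa, H2-Ab1, H2-Eb1, Cd74, Ciita, H2-DMa and H2-DMb1. They were chosen by name, found by Ensembl identifier among the 55487 genes of the count table, and all 7 passed the filter on low counts (more than 1 CPM, the counts scaled to library size, in 2 samples or more), as did 12372 genes in all. The macrophages came from wild-type Balb/c mice of 8 weeks. RNA-sequencing covered 16 samples in 6 groups. BMDMs in the medium DMEM alone formed a group of 2 samples (DMEM), and BMDMs in DMEM with ruxolitinib a group of 3 (DMEM + Rux). Conditioned media (CM), which hold what 4T1 mouse mammary tumor cells release, were given alone (CM, 3 samples), with ruxolitinib at 0.5 μM (CM + Rux, 3 samples) or with the same ruxolitinib plus IKK-16 at 0.8 μM (CM + Rux + IKK-16, 3 samples). A last group of 2 samples was labelled CM with ruxolitinib and 2 h (CM + Rux 2 h), and by the study's methods treatment otherwise lasted 4 h. Ruxolitinib is an inhibitor of JAK1/2, and IKK-16 blocks the kinases upstream of NF-κB. The dose of ruxolitinib in DMEM and the event from which the 2 h were counted were not given in the sources used here, and neither was whether replicates came from separate animals or cultures, so that p-values measure the spread between these samples.

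MHC class II molecules are pairs of an α and a β chain that carry peptides from the endosome to the cell surface, where helper T cells read them. H2-Aa and H2-Ab1 encode the chains of I-A, and H2-Eb1 encodes the β chain of I-E. Cd74, the invariant chain, guides the new pair to the endosome and blocks its groove, and H2-DMa with H2-DMb1 encodes H2-M, which removes the last piece of that block so that peptides can bind. Ciita is the coactivator that switches these genes on. It binds no DNA itself and acts through the factors RFX, CREB and NF-Y, which sit on the X and Y boxes of each promoter. In macrophages interferon-γ induces Ciita through JAK1, JAK2 and IRF1.

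The promoters show where those factors would dock, so the stretches of H2-Aa and H2-Eb1 that hold both boxes are printed, with the letters CTNGNAAC (X) and TGATTGG (Y) in capitals. They are reference sequence from RefSeq (GRCm38.p6), 5′ to 3′ on the strand of the gene, and not sequence of Balb/c mice. The stretch of H2-Aa is chr17:34287852-34287922 on the minus strand, and that of H2-Eb1 is chr17:34305758-34305827 on the plus strand.
H2-Aa: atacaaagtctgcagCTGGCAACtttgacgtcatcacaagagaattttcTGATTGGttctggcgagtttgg
H2-Eb1: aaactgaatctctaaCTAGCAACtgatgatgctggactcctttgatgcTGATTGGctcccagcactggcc

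In H2-Aa the X letters began 84 bases and the Y letters 50 bases before the start of the gene, 34 bases apart. In H2-Eb1 they began 94 and 61 bases before it, 33 bases apart, and in H2-DMb1 97 and 63 bases before it, 34 bases apart. H2-Ob, which encodes a chain of H2-O, a brake on H2-M, had them 31 bases apart. The windows of H2-DMa did not hold these letters, those of H2-Oa and H2-DMb2 held Y without X, and that of H2-Eb2 held both but not as such a pair. Both strands of 32851 windows, from 250 bases before to 50 bases after a start, were searched for X followed by Y with starts at most 60 bases apart, and 35 windows held the pair, which is 0.107%. The X letters, with or without Y, were in 13.2% of windows, and the Y letters, with or without X, in 7.82%. The letters were written after the sequences had been read, so that the match is a description and no test. H2-Ab1, Cd74 and Ciita were not in the promoter table.

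The libraries held 18449388 to 46215853 counted fragments. Macrophage markers were high in all groups, and all 9 exceeded 1 CPM in some sample of each. They summed to 42537 to 44062 CPM in DMEM and to 46397 to 55420 CPM in CM. Among cells that carry class II by lineage, B cell markers summed to at most 1.36 CPM over 7 genes, with 1.24 to 1.31 CPM in DMEM and 0.223 to 0.285 CPM in CM, and Pax5 had 0 counts throughout. Markers of epithelial cells, the origin of 4T1, summed over 6 genes to at most 0.118 CPM in DMEM and to 0.692 to 1.45 CPM in CM. In CM that sum held 0.407 to 0.891 CPM of Cdh1 and up to 0.501 CPM of Krt18, while Krt5 and Krt14 had 0 counts. Neutrophil markers summed over 7 genes to 0.327 to 0.355 CPM in DMEM and 1.72 to 3.15 CPM in CM. Most of the latter was S100a8 (1.56 to 2.47 CPM), and Ly6g had 0 counts. Those of T and NK cells, nearly all Cd4, reached 13.1 CPM over 6. The 9 dendritic cell markers summed to 24.1 to 32.3 CPM in DMEM, 35.1 to 43.5 CPM in CM and up to 60.1 CPM in CM + Rux 2 h. Most of that sum was Itgax, which macrophages also express, and Flt3 never exceeded 0.167 CPM. Of the 4 that could be tested, Ccr7 (0.205 to 0.443 CPM in DMEM, 2.28 to 5.47 CPM in CM) and Batf3 (0.696 to 0.739 CPM in DMEM, 1.19 to 1.75 CPM in CM) were called higher in CM. Ccr7 exceeded 1 CPM only in groups with CM, so that it had to differ. Batf3 exceeded 1 CPM outside these groups only in DMEM + Rux replicate 3 (1.62 CPM). Both thus passed the filter through samples with CM. Zbtb46, a factor of dendritic cells, was at 7.95 and 12.3 CPM in the CM + Rux 2 h samples and between 0.647 and 2.09 CPM in the others, and the part of any of these markers in the results was not tested. In bulk RNA, fewer cells that express a gene cannot be told apart from less RNA per cell. Reads of Balb/c cells were aligned to a reference of another strain, whose class II genes differ in sequence, and the effect of this on the levels was not tested.

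The class II genes were expressed at very unequal levels. Per kb of exon, the median over the 16 samples was 124 CPM per kb for Cd74, 17.4 for H2-Eb1, 16.8 for H2-Ab1, 12.9 for H2-Aa, 8.88 for H2-DMa, 0.613 for H2-DMb1 and 0.494 for Ciita. Cd74 thus stood well above the chains it escorts, and the coactivator stood lowest on this scale. That last place depends on the exon lengths of the count table, 9535 bases for Ciita and 1681 for H2-DMb1. Without division by length the median of Ciita (4.71 CPM) exceeded that of H2-DMb1 (1.03 CPM). On the same scale the class I genes B2m, H2-D1 and H2-K1, which present peptides from the cytosol, had medians of 1803, 680 and 177 CPM per kb, and Nlrc5, the class I counterpart of Ciita, had 3.60. H2-Ea-ps, the I-E α chain, is named a pseudogene in the reference, which is of another strain than these Balb/c cells, and had 37.8 CPM per kb in them. The name thus need not hold for Balb/c. Raw counts behind these levels ran from 3389 to 11193 per sample for Cd74, but from 57 to 452 for Ciita and from 11 to 55 for H2-DMb1. H2-DMb1 shares 95.5% of 1058 aligned transcript bases with its neighbour H2-DMb2, with identical runs of up to 221 bases, so its counts are uncertain.

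**Figure D1:**
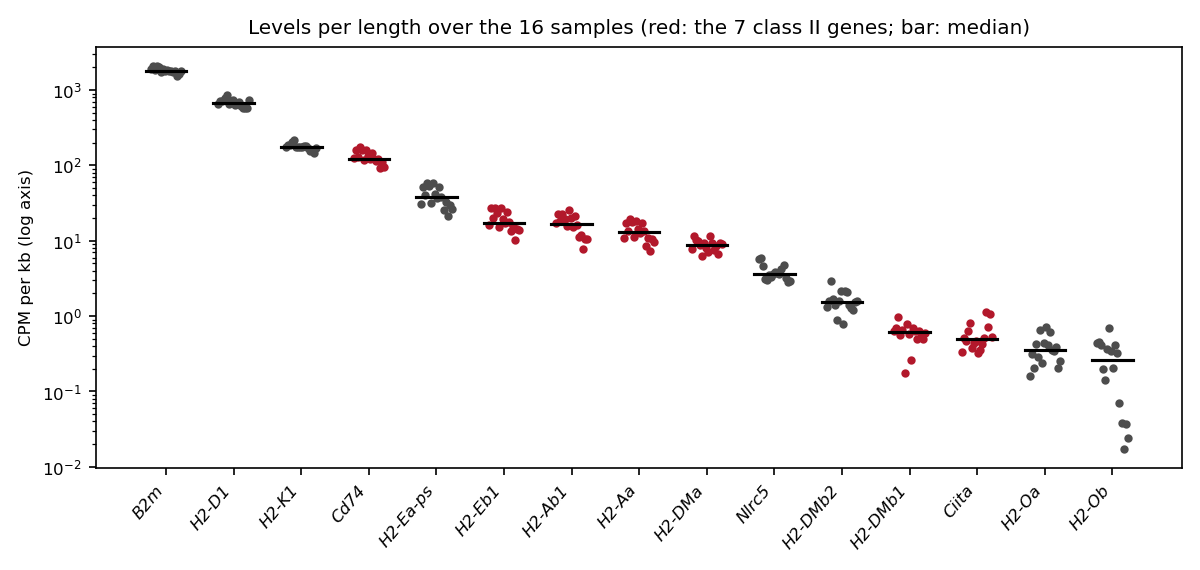
RLE-scaled CPM per kb of exon (log axis) of MHC class I, class II and related genes; each point is 1 of the 16 samples, red marks the 7 class II genes and bars are medians. Cd74 had a median of 124 CPM per kb, the chains H2-Eb1, H2-Ab1 and H2-Aa 17.4, 16.8 and 12.9, and Ciita 0.494.

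Tumor CM was compared with DMEM to see how soluble tumor factors change macrophages. H2-Ab1 was higher and Ciita lower in CM, and the other 5 genes were not called. A gene was called at an adjusted p-value under 0.05 in the quasi-likelihood test of edgeR, if its log2 fold change was also past 0.5 or -0.5. With these rules 45% of all genes tested were called in this comparison, 20.9% higher and 24.1% lower, a larger share than the 2 of 7 class II genes. The median log2 fold change of the 7 genes was 0.45, and that of all genes was near 0. All CPM below are scaled by relative log expression (RLE), and with total counts in its place log2 fold changes were lower here by 0.31 at the median.

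H2-Ab1 (chromosome 17, 34257689 to 34269419 of GRCm38) had 28.5 and 30.5 CPM in DMEM and 44.5, 58.8 and 46.4 CPM in CM. Every CM sample exceeded both DMEM samples. The log2 fold change was 0.76 (standard error 0.21, edgeR adjusted p = 0.0060). Leaving out any sample left it between 0.63 and 0.84, and with scaling by total counts it was 0.45, short of the fold threshold (adjusted p = 0.039).

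Ciita (chromosome 16, 10480059 to 10528418) moved the other way. It had 4.94 and 11.0 CPM in DMEM and 3.17, 4.93 and 4.48 CPM in CM. The groups did not overlap, but the highest CM sample lay just under the lower DMEM sample. The log2 fold change was -0.89 (standard error 0.32, edgeR adjusted p = 0.0268). It rested on DMEM replicate 2, without which it was -0.22 (adjusted p = 0.61), and the call was also lost without CM replicate 1 (adjusted p = 0.086) and in a model of CM and DMEM alone (adjusted p = 0.057).

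The partners of H2-Ab1 had changes in the same direction that were not called in this model. H2-Aa (chromosome 17, 34282744 to 34287823) had 32.8 and 41.1 CPM in DMEM and 41.0, 64.5 and 50.6 CPM in CM, so that the lowest CM sample lay within the DMEM range. Its log2 fold change was 0.50 (95% interval 0.01 to 0.98, edgeR adjusted p = 0.069). H2-Eb1 (chromosome 17, 34305867 to 34316674) had 26.3 and 30.8 CPM in DMEM and 31.8, 53.7 and 38.5 CPM in CM, a log2 fold change of 0.54 (95% interval -0.01 to 1.10, edgeR adjusted p = 0.083). Its groups did not overlap, yet the lowest CM sample exceeded the higher DMEM sample by little. The difference between H2-Ab1 and these genes was not tested. Cd74 (chromosome 18, 60803848 to 60812652) had 191 and 203 CPM in DMEM and 210, 273 and 219 CPM in CM, a log2 fold change of 0.25 with RLE scaling (edgeR adjusted p = 0.134) and of -0.06 with scaling by total counts. H2-DMa (chromosome 17, 34119541 to 34139101) likewise changed sign between scalings, with log2 fold changes of 0.30 and -0.02, and had 25.6 and 29.5 CPM in DMEM and 26.7, 39.5 and 35.0 CPM in CM. H2-DMb1 (chromosome 17, 34153072 to 34160230) had 0.828 and 1.06 CPM in DMEM and 1.06, 1.16 and 1.63 CPM in CM, and its interval was too wide (-0.61 to 1.51) for a change of the size seen in H2-Ab1 to be detectable.

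**Figure D2:**
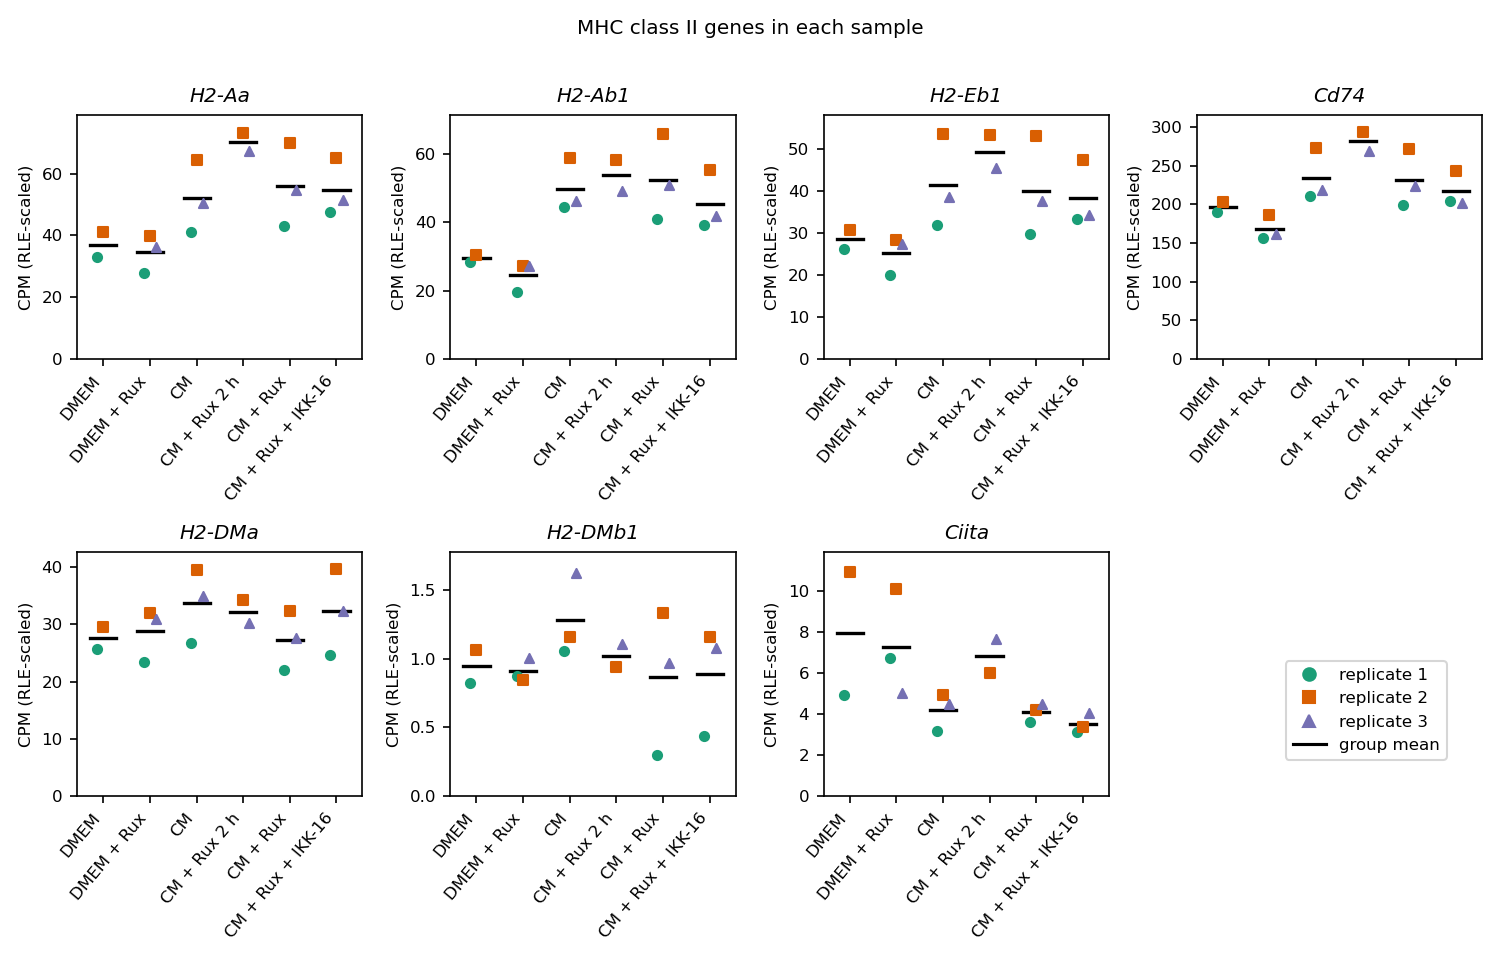
RLE-scaled CPM of the 7 class II genes (vertical axes from 0) in the 16 samples of 6 groups; colour and shape give the replicate number, and bars are group means. H2-Ab1 lay at 28.5 and 30.5 CPM in DMEM and at 44.5 to 58.8 CPM in CM, and Ciita was high in DMEM replicate 2 (11.0 CPM).

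**Figure D3:**
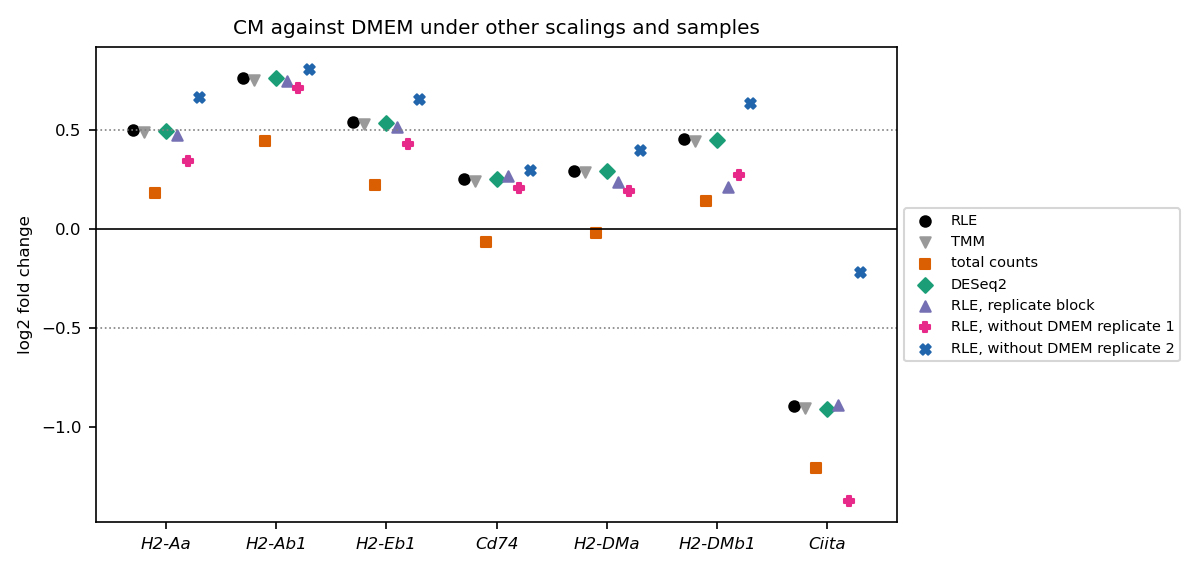
Log2 fold changes of the 7 class II genes in CM against DMEM under RLE, TMM and total-count scaling, DESeq2, a replicate block, and without either DMEM sample; dotted lines mark 0.5 in either direction. Ciita went from -0.89 to -0.22 without DMEM replicate 2, and Cd74 and H2-DMa fell to -0.06 and -0.02 with total counts.

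CM + Rux was also set against DMEM, to see the response to tumor CM with JAK inhibited. In CM + Rux against DMEM 43.5% of all genes were called, 20.4% higher and 23.2% lower, and of the class II genes H2-Ab1 and H2-Aa were called higher and Ciita lower. H2-Ab1 had 40.9, 65.8 and 50.9 CPM in CM + Rux, a log2 fold change over DMEM of 0.84 (standard error 0.21, edgeR adjusted p = 0.0034). H2-Aa had 42.9, 70.0 and 54.6 CPM, a log2 fold change of 0.60 (edgeR adjusted p = 0.034). All 3 values of H2-Aa exceeded both DMEM samples, but the call was lost with scaling by total counts (0.30, adjusted p = 0.18) and without DMEM replicate 1 (0.44, adjusted p = 0.22), CM + Rux replicate 2 (0.40, adjusted p = 0.14) or CM + Rux replicate 3 (0.61, adjusted p = 0.052). Ciita had 3.61, 4.21 and 4.48 CPM, a log2 fold change of -0.95 (edgeR adjusted p = 0.0194). As in CM, it rested on DMEM replicate 2, without which it was -0.27 (adjusted p = 0.52), and it was not called without CM + Rux replicate 1 (adjusted p = 0.060). The comparisons with DMEM share the DMEM samples and are not independent.

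The direct comparison of CM + Rux with CM asks what JAK inhibition does in tumor-conditioned macrophages. None of the 7 genes was called, by edgeR or by DESeq2, and none had an unadjusted p-value under 0.05, while 3.33% of all genes tested were called, 1.2% higher and 2.13% lower. The median log2 fold change was -0.05 for the 7 genes and 0.01 for all genes. For H2-Ab1 it was 0.07 (95% interval -0.32 to 0.46), for H2-Aa 0.10 (-0.33 to 0.52), for H2-Eb1 -0.05 (-0.53 to 0.44) and for Cd74 -0.02 (-0.28 to 0.25). With the replicate number as a block the intervals were narrower, at -0.15 to 0.27 for H2-Ab1, -0.07 to 0.26 for H2-Aa and -0.15 to 0.12 for Cd74, and again included 0. Ciita, at -0.06, had a wider interval of -0.70 to 0.59. H2-DMa had 26.7, 39.5 and 35.0 CPM in CM and 21.9, 32.4 and 27.6 CPM in CM + Rux, so that each numbered sample was lower with ruxolitinib. Its log2 fold change was -0.31 (adjusted p = 0.52), and with the block in edgeR it was -0.30 (95% interval -0.47 to -0.14, adjusted p = 0.0212), still short of the fold threshold. The block raised the share of all genes called to 6.02%.

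IKK-16 on top of ruxolitinib also left the 7 genes uncalled in edgeR and DESeq2, with 0 unadjusted p-values under 0.05, against 7.74% of all genes called, 4.07% higher and 3.66% lower. Log2 fold changes in CM + Rux + IKK-16 against CM + Rux ran from -0.22 for Ciita to 0.24 for H2-DMa. H2-Ab1 had 39.3, 55.4 and 41.8 CPM with both inhibitors, each below the same-numbered CM + Rux sample. Its log2 fold change was -0.21 (95% interval -0.60 to 0.18). Ciita, with 3.12, 3.36 and 4.05 CPM, was also below the same-numbered sample each time. H2-DMa had 24.7, 39.7 and 32.4 CPM with both inhibitors, above the same-numbered CM + Rux sample in each case, and with the block its log2 fold change was 0.23 (edgeR adjusted p = 0.0373). This was short of the fold threshold, so that H2-DMa was not called. It was the only 1 of the 7 genes with an adjusted p under 0.05 in that model, in which 10.8% of all genes were called. Against CM alone, where 12.7% of all genes were called (6.6% higher, 6.13% lower), again 0 of 7 were called by edgeR and DESeq2 and 0 had an unadjusted p-value under 0.05. Values ran from -0.54 for H2-DMb1 to 0.07 for H2-Aa. With the block 15.6% of all genes were called against CM, and 0 of the 7 genes had an adjusted p under 0.05.

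Ruxolitinib in DMEM changed few genes, and 0.97% of all genes tested were called. None of the class II genes was called by edgeR or DESeq2, and 0 had an unadjusted p-value under 0.05. H2-Ab1 had 19.7, 27.2 and 27.2 CPM in DMEM + Rux, all 3 below both DMEM samples, with a log2 fold change of -0.25 (95% interval -0.69 to 0.19). Cd74 had 157, 186 and 162 CPM, also all below DMEM, with a log2 fold change of -0.22 (-0.52 to 0.07). The effect of ruxolitinib in CM minus that in DMEM was tested as an interaction, in which 0.412% of all genes were called. Again 0 of the 7 genes were called by edgeR and DESeq2 and 0 had an unadjusted p-value under 0.05, with values from -0.53 for H2-DMb1 to 0.32 for H2-Ab1 and a smallest adjusted p of 0.86.

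**Figure D4:**
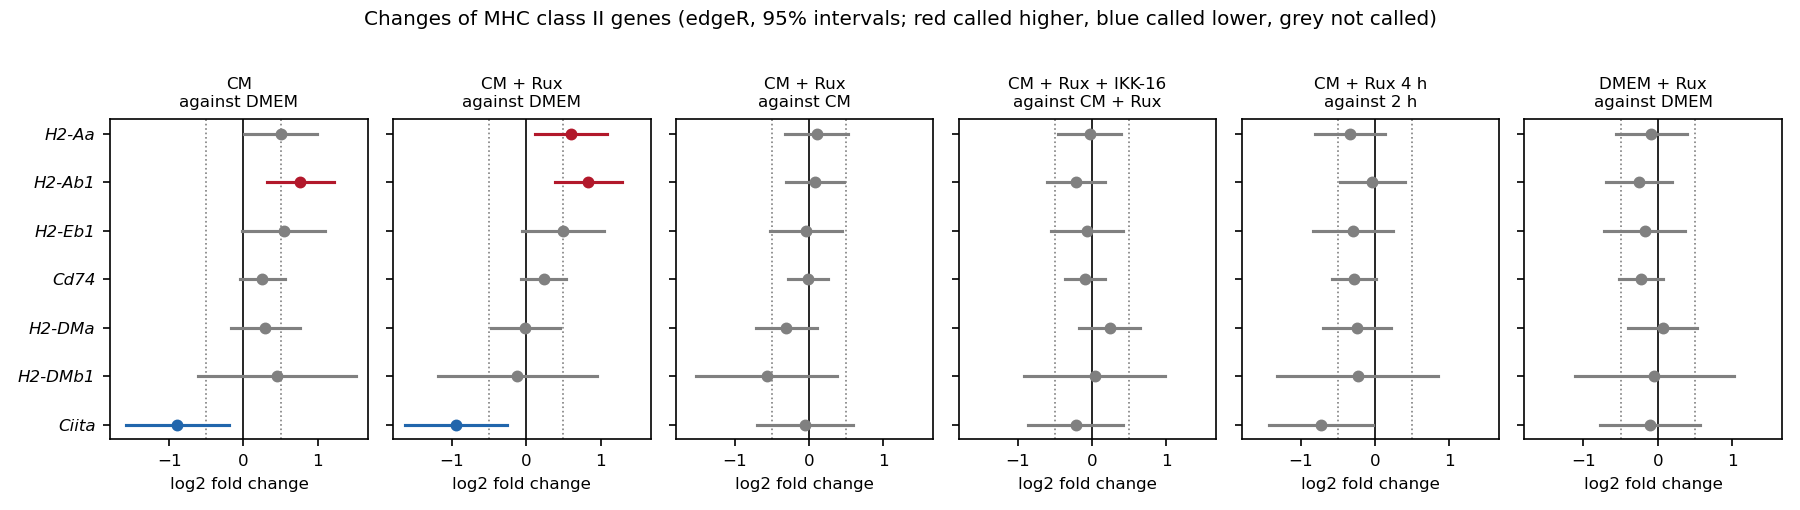
Log2 fold changes (points) with 95% intervals (bars) of the 7 class II genes in 6 comparisons from edgeR with RLE scaling; red was called higher, blue lower and grey not called, and dotted lines mark 0.5 in either direction. Calls appear only in the comparisons with DMEM, for H2-Ab1 (0.76 and 0.84), H2-Aa (0.60) and Ciita (-0.89 and -0.95); with total counts H2-Ab1 in CM and H2-Aa in CM + Rux were not called.

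The CM + Rux samples labelled 2 h held the highest group means of H2-Aa, H2-Ab1, H2-Eb1 and Cd74, but have no replicate 1, which was often the lowest sample of other groups. H2-Ab1 had 58.4 and 49.3 CPM at 2 h in replicates 2 and 3, below the 65.8 and 50.9 CPM of the same numbers in CM + Rux. H2-Aa had 73.0 and 67.3 CPM there, H2-Eb1 53.2 and 45.4 CPM, and Cd74 294 and 269 CPM. In CM + Rux 4 h against 2 h, where 23.3% of all genes were called (10.7% higher, 12.6% lower), the 7 genes had negative log2 fold changes from -0.04 for H2-Ab1 to -0.73 for Ciita. The sign of H2-Ab1 turned with total counts (0.025) and with a replicate block (0.052). None was called by edgeR or DESeq2, and 1, Ciita, had an unadjusted p-value under 0.05. Ciita had 6.02 and 7.65 CPM at 2 h, above all 3 CM + Rux samples (adjusted p = 0.092 in edgeR).

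In order of group means, H2-Ab1 ran from CM + Rux 2 h, without a replicate 1 (53.8 ± 6.43 CPM, SD, n = 2) through CM + Rux (52.6 ± 12.5, n = 3), CM (49.9 ± 7.75, n = 3), CM + Rux + IKK-16 (45.5 ± 8.64, n = 3) and DMEM (29.5 ± 1.36, n = 2) to DMEM + Rux (24.7 ± 4.30, n = 3). The ranges of mean ± SD overlapped among the 4 groups with CM and between DMEM and DMEM + Rux, but not between the groups with and without CM. Ciita ran from DMEM (7.95 ± 4.27 CPM, SD, n = 2) through DMEM + Rux (7.30 ± 2.57, n = 3), CM + Rux 2 h (6.84 ± 1.16, n = 2), CM (4.19 ± 0.915, n = 3) and CM + Rux (4.10 ± 0.443, n = 3) to CM + Rux + IKK-16 (3.51 ± 0.482, n = 3). Between neighbours in that order the ranges of mean ± SD overlapped except at the step from CM + Rux 2 h to CM, a pair for which no test was made. By group means the groups without CM thus stood first for Ciita and last for H2-Ab1. For Ciita, replicate 2 was the highest of both groups without CM (11.0 CPM in DMEM and 10.1 CPM in DMEM + Rux). DMEM replicate 1 (4.94 CPM) and DMEM + Rux replicate 3 (5.05 CPM) lay below both CM + Rux 2 h samples (6.02 and 7.65 CPM).

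Likeness was measured as the root mean square difference between centred group means of log2 CPM over the 6 groups, among 11554 genes. H2-Aa was most like H2-Ea-ps (0.027), and H2-Eb1 was the 8th most like it (0.069). The 5 genes most like H2-Ab1 were Srebf2, Nup98, Gm6395, Zswim1 and Zfp598 (0.034 to 0.068). The 5 most like Ciita were Ifngr1, Tmem38b, Tmem132a, Gm15922 and Myo1e (0.063 to 0.099), while H2-Aa, H2-Ab1 and H2-Eb1 lay 0.66, 0.78 and 0.64 from it. The nearest gene was Naa15 for H2-Eb1, Plpbp for H2-DMa and Emb for H2-DMb1. These distances rest on 6 group means from the same libraries and are a description.

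Within groups the class II genes varied together by replicate number. The sample numbered 2 was the highest of its group in 6 of 6 groups for each of H2-Aa, H2-Ab1, H2-Eb1, Cd74 and H2-DMa, and in 3 of 6 for Ciita and for H2-DMb1. In the 4 groups of 3 samples, number 1 was the lowest in all 4 for H2-Aa, H2-Ab1, H2-Eb1 and H2-DMa. The largest ratio of highest to lowest sample within a group was 1.63 for H2-Aa, 1.79 for H2-Eb1 and 1.36 for Cd74. Several macrophage markers did the same, with Adgre1, Csf1r, Itgam and Fcgr1 highest in number 2 in 6 of 6 groups, Cd68 in 1 and Itgax in 0. What the shared number stands for was not given, and its part in the class II levels was not tested.

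Of the other class II genes, H2-Ob was called higher in CM than in DMEM. It had 0.383 and 0.205 CPM in DMEM and 2.34, 2.41 and 2.24 CPM in CM, a log2 fold change of 2.92 (edgeR adjusted p = 7.0e-05). It passed the filter only through groups with CM, so that it had to differ. H2-Ea-ps, with 26.2 and 33.4 CPM in DMEM and 31.8, 53.8 and 42.3 CPM in CM, had a log2 fold change of 0.53 (adjusted p = 0.087). H2-Oa was too low to be tested, and H2-Eb2 had 0 counts.

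The factors that dock on class II promoters and the genes upstream of Ciita were described as lists. Of 7 promoter factors, 3 were higher in CM than in DMEM (Nfyb by 1.33, Nfya by 0.64 and Rfxank by 0.51 on the log2 scale), and the list had a median of 0.42, in a comparison where 20.9% of all genes were higher and 45% called in either direction. Of 12 regulators of Ciita, CM raised 6 and lowered 2, against 20.9% higher and 24.1% lower among all genes. Socs1, a brake on JAK signaling, rose by 4.32 on the log2 scale, from 0.887 and 0.941 CPM in DMEM. Jak2 rose by 3.59 and Prdm1, a repressor of Ciita, by 1.28. Ifngr1, a chain of the interferon-γ receptor, fell by 0.75 and Irf1, an activator of Ciita, by 0.70.

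Ruxolitinib lowered 2 of 12 regulators in CM and 2 of 12 in DMEM. In CM + Rux against CM, where 2.13% of all genes and 0 of 7 promoter factors were lower, the regulator Irf8, an interferon regulatory factor of myeloid cells, was lower with a log2 fold change of -0.90 (edgeR adjusted p = 1.2e-04). It had 267, 297 and 282 CPM in CM and 137, 143 and 174 CPM in CM + Rux, with no overlap. In DMEM + Rux against DMEM, where 0.97% of all genes were lower, Socs1 fell by 1.76 on the log2 scale (edgeR adjusted p = 9.8e-04). Its levels there were low, with 0.887 and 0.941 CPM in DMEM (30 and 23 counts). In DMEM + Rux it had 0.185, 0.290 and 0.291 CPM (4, 13 and 9 counts). Of 9 class I genes, Nlrc5 and Tap1 were lower with ruxolitinib in both media. Nlrc5 had 48.0, 50.9 and 39.7 CPM in CM and 30.0, 28.1 and 30.4 CPM in CM + Rux (log2 fold change -0.65, edgeR adjusted p = 6.3e-04). Whether the change of Nlrc5 differed from that of Ciita was not tested. With both inhibitors 5 of 9 class I genes were lower than in CM (Tap1, Psmb9, Psmb8, Nlrc5 and Tap2, with log2 fold changes from -1.25 to -0.52), where 6.13% of all genes were lower. The difference between class I and class II was not tested. Among the 12 regulators, the interaction passed the thresholds for Irf8 (-0.97, edgeR adjusted p = 0.0118) and Socs1 (1.499, adjusted p = 0.0302). The value of Socs1 rests in part on its low counts without CM.

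IKK-16 lowered 3 of 12 regulators and 1 of 7 promoter factors relative to CM + Rux, against 3.66% of all genes. Socs1 had a log2 fold change of -1.56, Jak2 of -0.81, Prdm1 of -0.59 and Nfyb of -0.66. In CM + Rux 4 h against 2 h, Irf1 and Ifngr1 were lower at 4 h (-1.42 and -0.86) and Socs1 higher (1.80). Irf1 had 122 and 257 CPM at 2 h and 65.0, 74.6 and 72.3 CPM in CM + Rux, with no overlap. H2-Ob was higher at 4 h (1.44, edgeR adjusted p = 0.0086).

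Among 11 genes that process class II or control its turnover, CM raised 5 and lowered 2 relative to DMEM, where 45% of all genes were called. Cd83, which shields surface class II, rose by 2.88, and Ctsl, a protease that cuts the invariant chain, by 1.55 on the log2 scale. March1, the ubiquitin ligase that sends class II for destruction, had 35.5 and 43.5 CPM in DMEM and 95.7, 74.4 and 83.2 CPM in CM (log2 fold change 1.10, edgeR adjusted p = 0.00394). With ruxolitinib it was at 33.0, 26.0 and 36.3 CPM, below all CM samples (-1.41, adjusted p = 0.00413), and with IKK-16 as well at 17.6, 9.88 and 26.7 CPM (-0.81 against CM + Rux, adjusted p = 0.0451). March1 was lowest at 2 h, with 4.97 and 5.49 CPM.

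**Figure D5:**
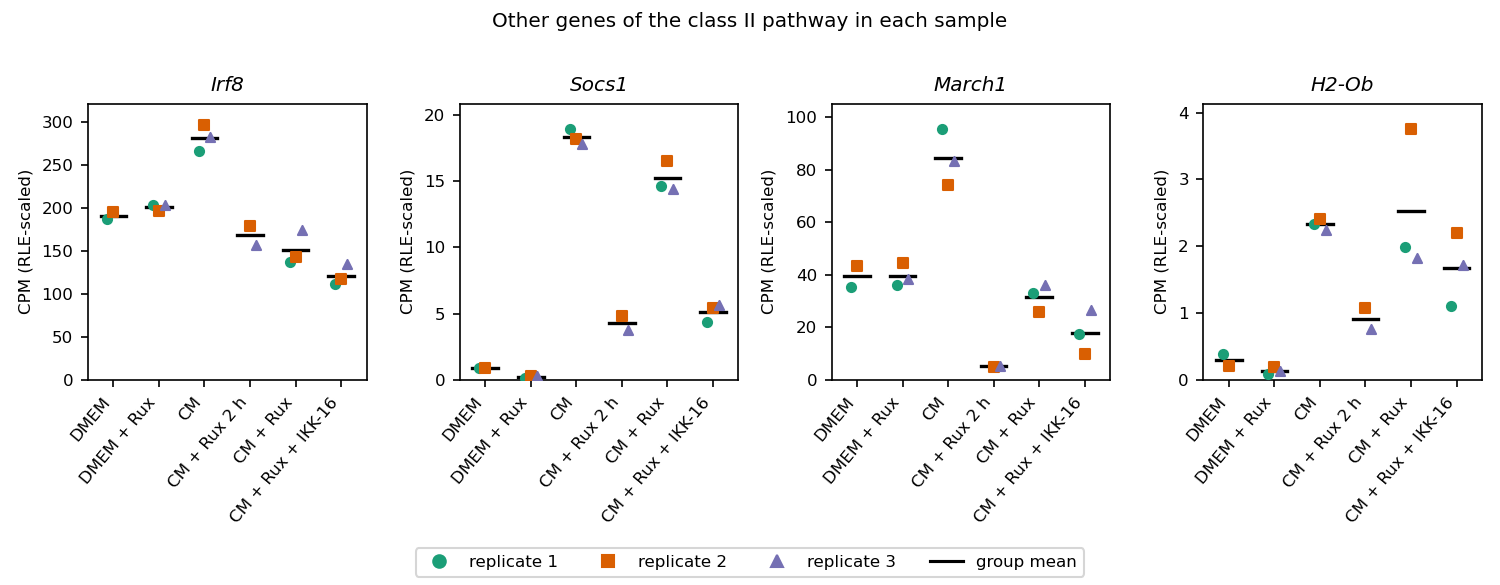
RLE-scaled CPM (vertical axes from 0) of Irf8, Socs1, March1 and H2-Ob in the 16 samples; colour and shape give the replicate number, and bars are group means. March1 was at 74.4 to 95.7 CPM in CM and at 26.0 to 36.3 CPM in CM + Rux, and Irf8 was at 267 to 297 CPM in CM and at 137 to 174 CPM in CM + Rux.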

How the data were processed

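RNA of 16 BMDM samples was sequenced by the authors as stranded paired reads. Per the labels and the study's methods, reads were trimmed with Trimmomatic 0.33, aligned to GRCm38 with HISAT2 2.1.0 and counted with featureCounts 1.6.2 on the Ensembl 100 annotation. The deposited values are whole-number counts per gene, without scaling. Counts with several alignments or a low mapping quality are missing, which lowers genes with near copies. Symbols were taken from an Ensembl gene table of an earlier release on GRCm38, not from Ensembl 100, and 55141 of 55487 identifiers matched, with the other 346 holding at most 0.0459% of a sample's counts.

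Counts were scaled by RLE. The 12372 genes with more than 1 CPM in 2 or more samples were tested in 1 model of 6 groups with the quasi-likelihood test of edgeR 4.0.16 (limma 3.58.1, R 4.3.3), with Benjamini-Hochberg adjustment over all of them. Scaling, filter and thresholds (adjusted p under 0.05, log2 fold change beyond 0.5) follow the study. Intervals are at 95%. The test was checked on simulated counts. The alternatives were TMM, total counts, no filter, filterByExpr, a replicate block, a model of only the groups compared, DESeq2 1.42.0, no fold threshold and each sample left out. Promoters and figures used Python 3.11.15. The members, lists and tests were chosen with earlier results of these data known. The 7 genes are named in every comparison, and other genes where called, where largest in their list or where most alike. Some genes of the lists are not reported here.

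No samples were copies. Samples with the same number deviated from their group means together. The correlation of deviations lay above 0.1 for each of the 3 pairs between any of the groups of 3 samples, so that the numbers were taken to pair these samples. The source of the pairing is this correlation, since the labels give only a number. The main tests left the number out, and results with it as a block are given as an alternative. In the comparisons between groups of 3 samples, none of the 7 genes was called with the block either.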

Additional observations from a re-analysis of the deposited data

How the results depend on the processing

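The number of class II genes called in CM against DMEM was 2, with 1 under scaling by total counts (Ciita), 1 in a model of only the groups compared (H2-Ab1), 4 without the filter on low counts (also H2-Aa and H2-Eb1), and 1 to 3 with a sample left out. In CM + Rux 4 h against 2 h it went from 0 to 1 (Ciita) without the filter and with only the groups compared. It was 2 to 3 in CM + Rux against DMEM and 0 in the other comparisons with a sample left out. The cause was not tested. TMM, filterByExpr, DESeq2 and no fold threshold kept each of these counts.

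With the replicate block, 3 genes were called in CM against DMEM, the added one being H2-Eb1 (0.51, edgeR adjusted p = 0.0023). In that model 47.2% of all genes tested were called. Without the fold threshold 6 of 7 had an adjusted p under 0.05, but the share of all genes without that threshold was not counted, so the 6 cannot be set against it. The block changed no other count of called class II genes. It raised the share of all genes called in the interaction from 0.412% to 3.59%. DMEM and the 2 h group share only 2 numbers with the groups they were compared with, so no pairing was assumed there, although 16 of 16 samples correlated best with a sample of their own number.

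Of 734 single log2 fold changes under alternatives, 654 kept direction and side of the thresholds, 10 lost the call, 9 gained it and 61 changed sign, none of these called. Total counts turned Cd74 (-0.064) and H2-DMa (-0.021) in CM against DMEM, Cd74 in CM + Rux against CM (0.0059) and against DMEM (-0.058), H2-Aa (0.059) and H2-Eb1 (0.025) in CM + Rux + IKK-16 against CM + Rux, H2-Eb1 (0.0014) and H2-DMa (0.041) in CM + Rux + IKK-16 against CM, and H2-Ab1 in 4 h against 2 h (0.025, and 0.052 with the block).

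Leaving out 1 sample, which leaves DMEM and the 2 h group with a lone sample assumed to vary like the others, turned other values, given as lowest to highest. In CM + Rux against CM these were -0.10 to 0.29 for H2-Aa, -0.12 to 0.23 for H2-Ab1, -0.31 to 0.19 for H2-Eb1, -0.15 to 0.11 for Cd74 and -0.21 to 0.082 for Ciita. In CM + Rux + IKK-16 against CM these were -0.078 to 0.25 for H2-Aa, -0.29 to 0.12 for H2-Eb1, -0.21 to 0.012 for Cd74 and -0.25 to 0.092 for H2-DMa. In the interaction these were -0.13 to 0.37 for H2-Eb1, -0.63 to 0.52 for Ciita and -0.016 to 0.37 for H2-Aa. In CM + Rux 4 h against 2 h these were -0.23 to 0.12 for H2-Ab1 and -0.81 to 0.22 for H2-DMb1. In CM + Rux + IKK-16 against CM + Rux these were -0.41 to 0.62 for H2-DMb1, -0.19 to 0.17 for H2-Aa, -0.25 to 0.19 for H2-Eb1 and -0.19 to 0.031 for Cd74. In CM + Rux against DMEM these were -0.16 to 0.13 for H2-DMa and -0.71 to 0.33 for H2-DMb1. In DMEM + Rux against DMEM these were -0.038 to 0.19 for H2-DMa, -0.24 to 0.084 for H2-Aa, -0.58 to 0.57 for Ciita and -0.23 to 0.13 for H2-DMb1. Depth limits H2-DMb1, with 11 to 55 counts, and Ciita, with 57 to 452, most.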
